A study of Mus musculus with 67 samples.

Results

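Chemokine receptors are the surface receptors with which T cells read chemokine gradients, and 9 of them were followed here in T cells sorted from mouse brain: *Cxcr3*, *Cxcr4*, *Cxcr5*, *Cxcr6*, *Ccr2*, *Ccr4*, *Ccr6*, *Ccr7* and *Ccr8*. The 9 genes were chosen by name and not by a value, with earlier results of these data known. They are 9 of 24471 features counted in the second experiment and 9 of 24421 gene symbols counted in the pilot. The study asked how a high-fat high-sugar (HFHS) diet acts on T cells of the hypothalamus. In the second experiment, activated conventional T cells (Tconv) and Tregs were sorted from the hypothalamus and from the brain without hypothalamus (rest brain) of Foxp3GFP reporter mice on HFHS diet or standard diet (SD). Activated Tconv were live CD4+ cells without CD25 and Foxp3GFP, high in CD44 and low in CD62L, and CD8a+ cells were excluded by the antibody panel. In this experiment Balb/c pools came from females and C57Bl/6J pools from males, so strain and sex cannot be told apart in it. There were 59 libraries in 16 groups of 2 to 4 pools. The pilot had 8 libraries of hypothalamic CD4+ T cells, 1 per condition. For 4 of them female Balb/c reporter mice (pools of 9) received 16 weeks of SD or HFHS diet, and a CD25- gate with low to intermediate CD44 and a CD25+Foxp3GFP+ Treg gate were used. For the other 4, female leptin-deficient *ob*/*ob* mice and female C57Bl/6J wildtype (WT) mice on SD (pools of 7) were sorted by a CD25- and a CD25++ gate.

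Depth and the number of genes seen are given by cell type and tissue, and median depth of the 16 groups ran from 8417595 to 22806588 counts. Libraries of activated Tconv held 11340067 to 28187015 counts in rest brain (median 19113239, n = 13) and 13196692 to 20538317 in the hypothalamus (median 18052468, n = 16). Treg libraries held 8938480 to 24985602 in rest brain (median 17377174, n = 14) and 1724150 to 38482283 in the hypothalamus (median 15027201, n = 16). A median of 10769 and 9593 genes had more than 10 counts in Tconv of rest brain and hypothalamus, against 8803 and 4478 in Tregs. For this, 5891 genes were chosen by a middle range of median CPM in Tregs of rest brain, which by itself keeps the share of that group low. Of these genes, a median of 0.323%, 1.06% and 2.28% had 3 counts or fewer in Tconv of rest brain, Tconv of the hypothalamus and Tregs of rest brain. In Tregs of the hypothalamus this was 39% (7.01% to 71%), so a receptor at 3 counts or fewer there was 1 of many such genes. The 9 receptors went the same way, with a median of 8, 8, 8 and 5 of them above 3 counts per library in the same order.

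The sorting labels were checked against marker genes before any comparison. The 5 T cell genes found in the files, of 6 named, summed to medians of 7439, 7074, 7445 and 6672 CPM (counts scaled to the library total) in Tconv of rest brain, Tconv of the hypothalamus, Tregs of rest brain and Tregs of the hypothalamus. The Treg list of 4 genes summed to 197, 112, 2222 and 1632 CPM. *Foxp3*, the defining Treg gene, had medians of 6.08 CPM (0.0355 to 12.6) and 3.94 CPM (0 to 13.8) in Tconv, and of 385 CPM (241 to 767) and 206 CPM (0.0977 to 862) in Tregs. All 4 Treg markers were higher in Tregs of rest brain (log2 fold change: *Foxp3* 5.97, *Il2ra* 4.02, *Ikzf2* 3.22, *Ctla4* 3.10). In the hypothalamus 3 of the 4 were called, and *Il2ra* was not (3.33, adjusted p = 0.0779). Transcripts of cell types that the gate excludes were also present. The 2 CD8 genes summed to medians of 276 and 218 CPM in Tconv and 21.6 and 0.0688 CPM in Tregs, and the 2 NK cell genes to 40.5, 11.8, 0 and 0 CPM. Microglia genes (5) summed to medians of 90.7, 94.8, 198 and 222 CPM.

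Among the hypothalamic Tregs, 2 libraries stood out by their microglia or endothelial genes. A Balb/c SD library (pool 32_36) had a Treg list sum of 3211 CPM, the highest of its tissue, and a T cell sum of 3643 CPM, but 0.0977 CPM of *Foxp3* and a microglia sum of 23359 CPM with *P2ry12* at 4866 CPM. A C57Bl/6J SD library (pool 11_15) had a T cell sum of 165 CPM, an endothelial sum of 3917 CPM led by *Cldn5* (2122 CPM), and *Il2ra* at 0. Another 2 hypothalamic Treg libraries had *Foxp3* as low as Tconv, at 3.48 CPM (C57Bl/6J SD 43_47) and 0.429 CPM (C57Bl/6J HFHS 06_10). Of these, 43_47 was also the smallest library and had 374 CPM of the B cell gene *Cd79a* and 148 CPM of *Cx3cr1*. All 4 libraries were kept in the tests. Without the first 2, or without all 4, the number of receptors called was unchanged in each comparison that used hypothalamic Tregs. In the pilot the CD25++ library of WT had a microglia sum of 30804 CPM against a T cell sum of 87.4 CPM and was not used for fold changes. *Foxp3* was also seen in CD25- libraries of the pilot, with 300 CPM in WT, 72.7 CPM in SD, 27.8 CPM in *ob*/*ob* and 1.38 CPM on HFHS diet. The Tregs of SD had 75.3 CPM.

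The receptors fall into groups by what they are known for. CXCR3, CXCR6 and CCR2 are borne by effector and tissue T cells and bind inflammatory ligands, with CXCR6 a common mark of resident memory cells. CCR7 and CXCR5 lead T cells into lymph node zones and follicles, CXCR4 binds CXCL12, and CCR4, CCR6 and CCR8 are found on Th2, Th17 and Treg subsets, CCR8 above all on Tregs of tissues.

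Per transcript length, *Cxcr6* was the most abundant of the 9 in activated Tconv and *Cxcr3* in Tregs. In Tconv of rest brain the median TPM (transcripts scaled for length and total) were 1751 for *Cxcr6* (598 to 2414), 683 for *Cxcr3* (212 to 937), 75.3 for *Ccr2*, 53.8 for *Cxcr4*, 42.3 for *Ccr8*, 37.4 for *Ccr7*, 4.38 for *Ccr4*, 2.66 for *Cxcr5* and 0.859 for *Ccr6*. *Cxcr3* lay above the 7 lower receptors in every Tconv library of rest brain, since none of them passed 121 TPM, while *Ccr2*, *Cxcr4*, *Ccr8* and *Ccr7* overlapped. In Tregs of rest brain the medians were 440 TPM for *Cxcr3* (143 to 731), 106 for *Ccr8*, 96.5 for *Cxcr4*, 83.9 for *Ccr7*, 57.5 for *Ccr6*, 40 for *Ccr2*, 16.1 for *Ccr4*, 7.18 for *Cxcr6* and 1.62 for *Cxcr5*. From *Ccr8* to *Ccr2* the ranges overlapped, and *Cxcr6* had gone from first place to eighth.

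**Figure D1:**
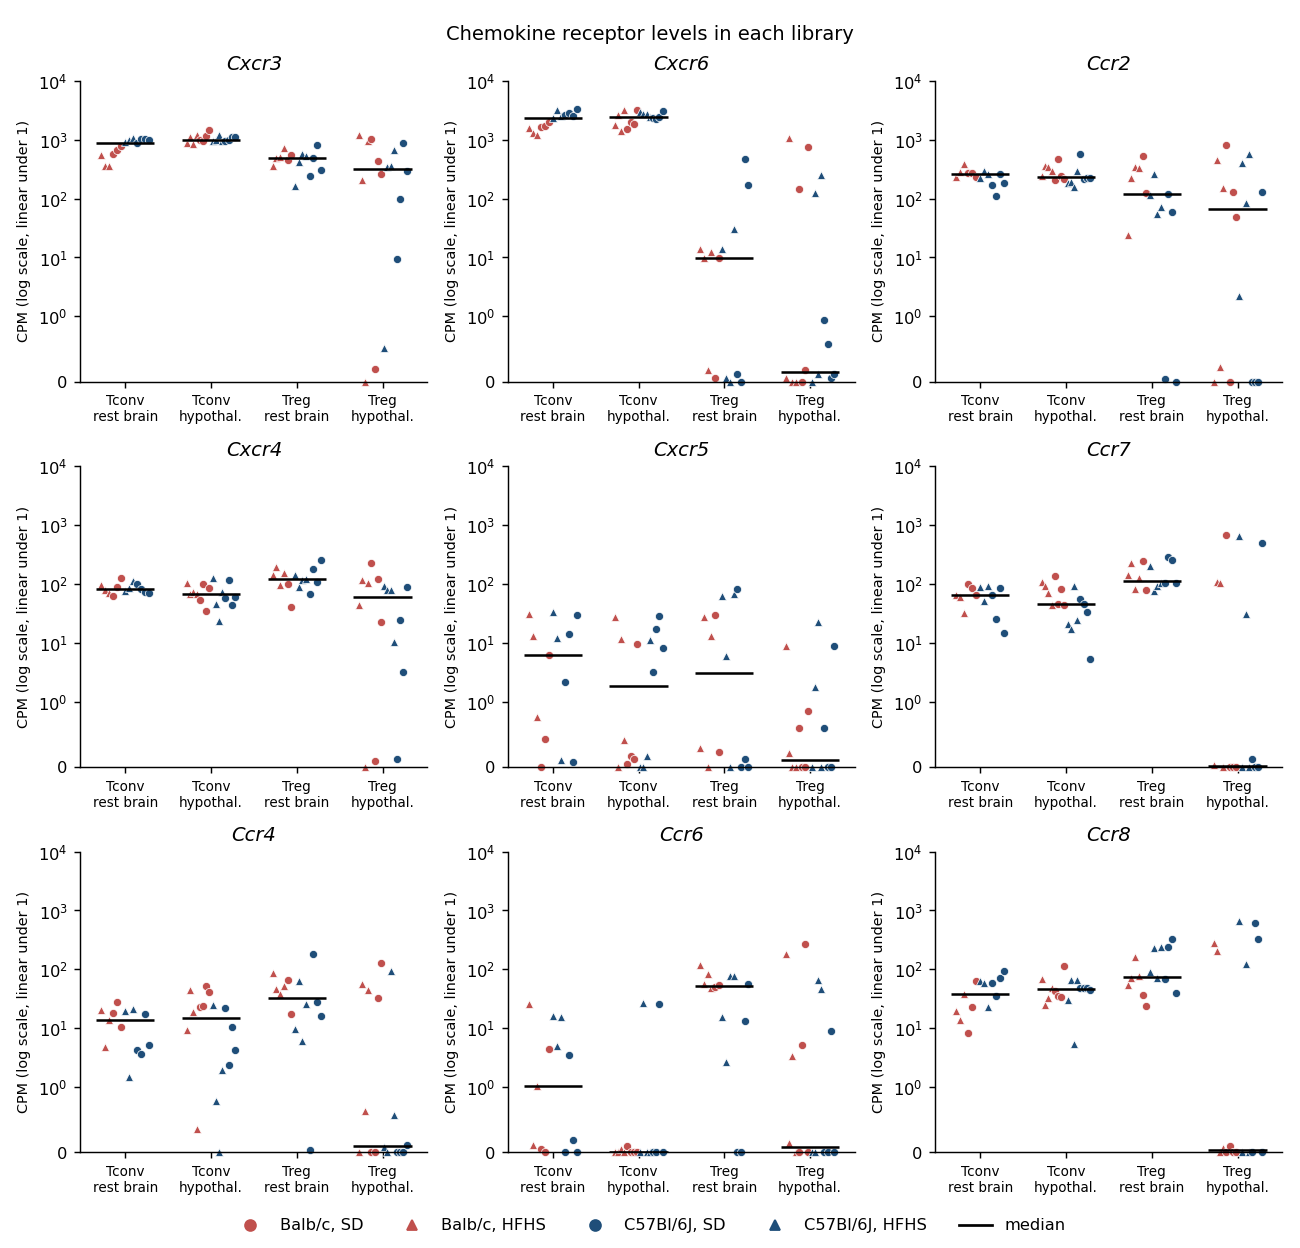
Levels of the 9 receptors in each of the 59 libraries of the second experiment. Median *Cxcr6* was 2330 and 2411 CPM in activated Tconv of rest brain and hypothalamus, and 9.68 and 0.149 CPM in Tregs.

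Tregs and activated Tconv of rest brain differed in 5 of the 9 receptors. *Cxcr6* and *Cxcr3*, the 2 receptors most abundant in Tconv, were lower in Tregs, and *Ccr6*, *Ccr7* and *Ccr8* were higher. edgeR called 14.9% of 13921 tested genes in this comparison, 4.37% higher and 10.5% lower in Tregs, so 5 of 9 was above the share of all genes. The median log2 fold change of all genes was -0.20. That of the 9 receptors was 0.82, the value of *Cxcr5*, which was not called and whose sign depended on the settings.

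*Cxcr6* separated the 2 cell types without overlap. In rest brain its level was 1205 to 3380 CPM in Tconv (median 2330, n = 13) and 0 to 472 CPM in Tregs (median 9.68, n = 14). Every Tconv library lay above every Treg library, and 6 Treg libraries had 3 counts or fewer. The log2 fold change was -6.39 ± 1.05 (standard error; adjusted p = 0.000112), and it lay between -7.10 and -6.28 when any 1 pool, with its Treg and Tconv libraries, was left out. The call ended with C57Bl/6J alone (-5.91, adjusted p = 0.0502) and with SD alone (-5.43, adjusted p = 0.0854), and DESeq2 gave no adjusted p for it. *Cxcr3*, the Th1-associated receptor, went the same way by less, from 361 to 1071 CPM in Tconv (median 869) to 166 to 828 CPM in Tregs (median 498). These ranges overlapped, and the log2 fold change was -0.70 ± 0.19 (adjusted p = 0.011). In Balb/c the means were 555 CPM in Tconv and 518 CPM in Tregs, and the call ended in that strain alone (-0.30, adjusted p = 0.297). In C57Bl/6J they were 989 and 445 CPM. With SD alone it was not called (-0.89, adjusted p = 0.0576). The third inflammatory receptor, *Ccr2*, was 112 to 383 CPM in Tconv (median 259) and 0 to 529 CPM in Tregs (median 118). Treg libraries lay both below and above all Tconv libraries, and it was not called (-0.90, adjusted p = 0.394).

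The receptors that were higher in Tregs of rest brain were far less abundant than *Cxcr3*. *Ccr7*, the lymph node homing receptor, was 14.9 to 99 CPM in Tconv (median 64.5) and 76.8 to 292 CPM in Tregs (median 114). Of the 14 Treg libraries 10 lay above the highest Tconv library (log2 fold change 1.23 ± 0.29, adjusted p = 0.00401). It was not called in Balb/c alone (0.94, adjusted p = 0.0611), C57Bl/6J alone (1.36, adjusted p = 0.122) or SD alone (1.54, adjusted p = 0.109). *Ccr8* was 8.18 to 94.2 CPM in Tconv (median 38.5) and 23.8 to 330 CPM in Tregs (median 75.3). Here 5 Treg libraries lay above all Tconv libraries and the rest overlapped (1.39 ± 0.38, adjusted p = 0.0106). The call ended in Balb/c alone (0.84, adjusted p = 0.399), C57Bl/6J alone (1.56, adjusted p = 0.0826) and SD alone (0.83, adjusted p = 0.637). A fit with the shared pool number as a block did not call *Ccr8* either (1.12, adjusted p = 0.127).

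*Ccr6*, the CCL20 receptor, was near 0 in most Tconv libraries. It was 0 to 26 CPM in Tconv of rest brain (median 1.04, with 5 of 13 libraries at 3 counts or fewer) and 0 to 118 CPM in Tregs (median 51.7, 2 of 14). All 6 Balb/c Treg libraries had 48.3 to 118 CPM, while the 8 of C57Bl/6J ran from 0 to 78.3 CPM. The log2 fold change was 3.41 ± 1.11 (adjusted p = 0.0337). This call hung on single pools. It was lost without pool Balb/c 16_20 (adjusted p = 0.0554), 32_36 (0.0547) or 47_25 (0.0648), and without C57Bl/6J 38_42 (0.0663), 62_66 (0.0585) or 67_71 (0.0753), with log2 fold changes of 2.83 to 3.33. It also ended with the filterByExpr filter (3.32, adjusted p = 0.0542), in Balb/c alone (3.69, adjusted p = 0.0602), in C57Bl/6J alone (3.12, adjusted p = 0.552) and with SD alone (4.51, adjusted p = 0.279). A block on the shared pool number ended it too (4.28, adjusted p = 0.115). *Ccr4* was not called by edgeR, at 1.45 to 27.4 CPM in Tconv (median 13.5) and 0.04 to 184 CPM in Tregs (median 33.1). The ranges overlapped (1.83 ± 0.64, adjusted p = 0.051), and it was called without pool C57Bl/6J 01_05 (1.84, adjusted p = 0.022) or 21_25 (1.86, adjusted p = 0.0499). DESeq2 (1.88, adjusted p = 0.00826), limma-voom (1.48, adjusted p = 0.0427), DESeq2 size factors in edgeR (1.88, adjusted p = 0.0455) and edgeR without the filter (1.75, adjusted p = 0.0446) called it.

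The remaining 2 receptors did not tell the cell types of rest brain apart. *Cxcr4*, the CXCL12 receptor, was 62 to 126 CPM in Tconv (median 83.7) and 40.3 to 256 CPM in Tregs (median 120), with overlap (0.52, adjusted p = 0.155). *Cxcr5*, the follicular receptor, was 0 to 32.9 CPM (median 6.26) and 0 to 83.1 CPM (median 3.1), with 7 of 14 Treg libraries at 3 counts or fewer (0.82, adjusted p = 0.757). Other settings gave -1.34 to 1.54 for it without a call.

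Other cell type markers moved with the same contrast. Both CD8 genes (*Cd8a* -7.41, *Cd8b1* -2.95) and both NK genes (*Ncr1* -11.09, *Klrb1c* -10.81) were lower in Tregs of rest brain. Their part in the result was not tested. In the 5 Tconv libraries with the lowest CD8 sums (1.94, 8.69, 14.3, 22.2 and 33.1 CPM), all of C57Bl/6J and 3 of them of the hypothalamus, *Cxcr6* was 2553, 2410, 2248, 2411 and 3160 CPM. Fewer cells of a type and less RNA per cell cannot be told apart in these pools. The p-values measure the spread between libraries, and libraries that share a pool number entered the main fit as separate units.

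**Figure D2:**
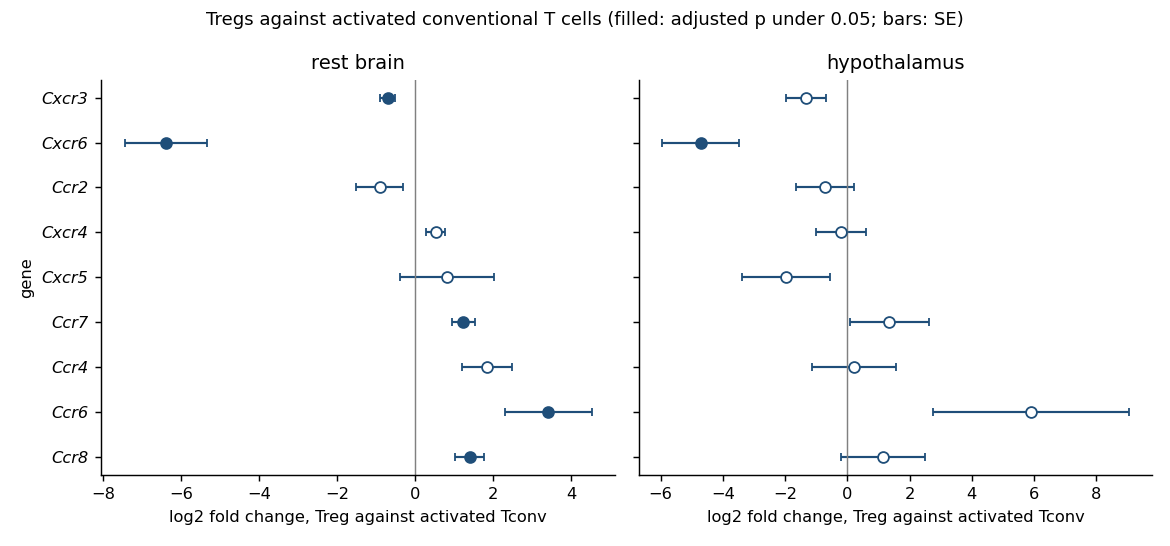
Log2 fold changes of Tregs against activated Tconv for the 9 receptors in both tissues. *Cxcr6* was -6.39 in rest brain and -4.71 in the hypothalamus, and the main edgeR fit called *Ccr6*, *Ccr7* and *Ccr8* in rest brain but not in the hypothalamus.

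In the hypothalamus *Cxcr6* was the only receptor called between Tregs and Tconv by the main edgeR fit, which held no block on the pool number. This was 1 of 9 where 7.72% of 11254 genes were called, 0.542% higher and 7.18% lower in Tregs, so the count of receptors was close to that of any 9 genes. The median log2 fold change was -0.59 for all genes and -0.20 for the receptors. *Cxcr6* was 1437 to 3274 CPM in Tconv (median 2411, n = 16). In Tregs it was 1068, 764, 249, 147 and 123 CPM in 5 libraries and below 1 CPM in the other 11. Again no Treg library reached the lowest Tconv library (-4.71 ± 1.24, adjusted p = 0.00946). In Balb/c alone it was not called (-3.21, adjusted p = 0.346).

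*Ccr8* of hypothalamic Tregs was either high or near 0 from library to library. *Ccr8* was 5.27 to 115 CPM in Tconv (median 45.8), and in Tregs it was 650, 610, 331, 277, 203 and 122 CPM in 6 libraries and below 0.1 CPM in the other 10. All 6 lay above every Tconv library and all 10 below, and the test across them gave 1.14 (adjusted p = 0.848). *Ccr7* was 5.4 to 139 CPM in Tconv (median 45.6) and 0 to 691 CPM in Tregs (median 0.013), with a log2 fold change of 1.35 (adjusted p = 0.752). Of the Treg libraries 10 of 16 had 3 counts or fewer, and a library of C57Bl/6J on HFHS diet lay inside the Tconv range at 30.3 CPM. The signs of *Ccr8* and *Ccr7* depended on the settings. limma-voom called *Ccr8* (-4.86, adjusted p = 0.00244) and *Ccr7* (-5.08, adjusted p = 0.00126) lower in Tregs. A fit with the shared pool number as a block did so too (*Ccr8* -9.00, adjusted p = 0.0141, and *Ccr7* -7.80, adjusted p = 0.0329). *Ccr6* was at 3 counts or fewer in 14 of 16 Tconv libraries and 9 of 16 Treg libraries, with highest values of 26.5 and 272 CPM (5.91, adjusted p = 0.365), and it was called higher in Tregs by DESeq2 (6.37, adjusted p = 0.0298), by limma-voom (3.74, adjusted p = 0.0261) and in Balb/c alone (11.07, adjusted p = 0.00817). *Cxcr3* was 854 to 1454 CPM in Tconv (median 998) and 0 to 1211 CPM in Tregs (median 321), so that Tregs reached from 0 into the Tconv range (-1.34, adjusted p = 0.281). limma-voom (-3.14, adjusted p = 0.0015) and edgeR without the filter (-1.35, adjusted p = 0.0245) called it lower in Tregs. With the pool number as a block *Cxcr3* was called lower (-2.66, adjusted p = 0.0189) and *Ccr6* higher (5.47, adjusted p = 0.0305).

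For the others the ranges also overlapped. *Ccr2* was 159 to 564 CPM in Tconv and 0 to 821 CPM in Tregs (medians 234 and 67.7; -0.71), *Cxcr4* 23.3 to 127 and 0 to 228 CPM (67.6 and 60.8; -0.20), *Ccr4* 0 to 52.3 and 0 to 128 CPM (14.8 and 0.102; 0.22) and *Cxcr5* 0 to 28.3 and 0 to 22.3 CPM (1.83 and 0.11; -1.97). edgeR called none of them, and limma-voom called *Ccr2* lower in Tregs (-4.55, adjusted p = 0.000794). The signs of *Ccr4* and *Cxcr4* depended on the settings, which gave -4.64 to 0.806 and -1.77 to 0.117 without a call. Leaving out a single pool took *Ccr4* as low as -2.54. Of the marker genes other than those of Tregs, *Cd8a* (-10.26), *Klrb1c*, *Tbx21*, *Il4* and *Il21* were lower in hypothalamic Tregs. Higher there were *Csf1r*, *C1qa* and the B cell gene *Cd79b*, and the part of these markers in the result was not tested. Leaving out pool C57Bl/6J 11_15, with its Tconv library and the Treg library with endothelial genes, raised the number of all genes called here from 869 to 1486 without changing the call of any receptor.

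Whether the contrast of Tregs against Tconv differed between the tissues was tested as an interaction. No receptor was called by edgeR, where 12.9% of 14727 genes were (1905 genes, and 3118 at unadjusted p < 0.05). The differences between tissues were -0.42 for *Cxcr3* (adjusted p = 0.895), 0.20 for *Ccr6* (1), 0.37 for *Ccr7* (0.977) and 0.01 for *Ccr8* (1), the 4 receptors called in rest brain alone, and 1.81 for *Cxcr6* (0.651). The median log2 fold change of all genes for the interaction was -0.08 with TMM and -0.26 with DESeq2 size factors. By edgeR the receptors called in rest brain only can therefore not be said to differ between the tissues. DESeq2 called 0 receptors too. limma-voom called 6, *Cxcr3* (-2.09, adjusted p = 0.0199), *Cxcr4* (-1.84, adjusted p = 0.0391), *Ccr2* (-3.05, adjusted p = 0.0465), *Ccr4* (-4.35, adjusted p = 0.023), *Ccr7* (-5.90, adjusted p = 0.00036) and *Ccr8* (-6.24, adjusted p = 0.000381), so the answer depended on the tool. In the same test edgeR called 4 of 5 microglia genes, 3 of 3 astrocyte genes and 2 of 3 endothelial genes higher, and their part in the result was not tested.

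Between activated Tconv of the hypothalamus and of rest brain edgeR called *Cxcr3* alone. Its level was 854 to 1454 CPM in the hypothalamus (mean 1062 ± 154 SD, n = 16) and 361 to 1071 CPM in rest brain (789 ± 256 SD, n = 13), with overlap, and the log2 fold change was 0.42 ± 0.11 (adjusted p = 0.00615). This was 1 of 9 receptors where 16.9% of 12803 genes were called, 5.69% higher and 11.3% lower. The lowest values of rest brain were those of Balb/c, at 365, 557 and 361 CPM on HFHS diet and 685, 575 and 789 CPM on SD. Those of C57Bl/6J were 993, 1071 and 922 CPM on HFHS diet and 991, 1031, 1046 and 869 CPM on SD, inside the range of the hypothalamus. The Balb/c libraries of rest brain also held 3.66% to 6.01% of their counts on *Tmsb4x*, against 1.32% to 3.05% in Tconv of the hypothalamus. The part of this difference in the *Cxcr3* call was not tested. The call ended in C57Bl/6J alone (0.09, adjusted p = 1) and with SD alone (0.32, adjusted p = 0.218). With the shared pool number as a block *Cxcr3* was not called either (0.40, adjusted p = 0.122). *Ccr6* was called lower in the hypothalamus by limma-voom (-3.52, adjusted p = 0.0182) and in Balb/c alone (-7.40, adjusted p = 0.00635), and *Cxcr4* by limma-voom (-0.49, adjusted p = 0.0461). *Cxcr6* was not called, with means of 2233 ± 713 and 2424 ± 581 CPM in rest brain and hypothalamus. In the same order they were 1572 and 2231 CPM in Balb/c, and 2799 and 2617 CPM in C57Bl/6J. Of the 5 microglia genes 4 were lower in the hypothalamus (*P2ry12* -10.25, *Tmem119* -6.40, *Csf1r* -6.28, *C1qa* -5.79). Their part in the result was not tested.

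Whether receptors of Tregs differed between the 2 tissues depended on the tool. edgeR called 4.92% of 12571 genes, 0.31% higher and 4.61% lower in the hypothalamus, and 0 of 9 receptors, with adjusted p of 0.424 to 1. At unadjusted p < 0.05 there were 1667 genes. DESeq2 called 0 receptors as well. limma-voom called 5 lower in the hypothalamus, *Cxcr4* (-2.38, adjusted p = 0.0324), *Ccr4* (-4.56, adjusted p = 0.00518), *Ccr6* (-4.57, adjusted p = 0.0107), *Ccr7* (-6.80, adjusted p = 0.000246) and *Ccr8* (-5.96, adjusted p = 0.00127). Of the 3 endothelial genes *Cldn5* was higher in the hypothalamus, and its part in the result was not tested. The median log2 fold change of all genes was -0.60, and that of the receptors was -0.17.

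Strain with sex went with 3 receptors in Tconv of rest brain, where the libraries also differed in make-up, as given below. Balb/c females had lower *Cxcr3* and *Cxcr6* and higher *Ccr2* than C57Bl/6J males. edgeR called 23.6% of 12259 genes, 12.2% higher and 11.4% lower in Balb/c, and 3 of 9 receptors, which is close to the share of all genes. *Cxcr3* averaged 555 ± 171 CPM (SD, n = 6) in Balb/c and 989 ± 71.4 CPM (n = 7) in C57Bl/6J, without overlap (log2 fold change -0.59 ± 0.13, adjusted p = 0.00298), and it was not called with SD alone (-0.43, adjusted p = 0.0756). *Cxcr6* was 1205, 1567 and 1285 CPM on HFHS diet and 1746, 1633 and 2000 CPM on SD in Balb/c. In C57Bl/6J it was 3160, 2553 and 2330 CPM on HFHS diet and 3380, 2894, 2588 and 2687 CPM on SD. No Balb/c library reached the lowest of C57Bl/6J (-0.56 ± 0.12, adjusted p = 0.00195). *Ccr2* was 234 to 383 CPM (median 274) in Balb/c and 112 to 299 CPM (median 223) in C57Bl/6J, with overlap (0.64 ± 0.18, adjusted p = 0.016), and the call was lost without Balb/c 47_25 (0.51, adjusted p = 0.0668) and with SD alone (0.62, adjusted p = 0.165). In TPM *Ccr2* was not higher in Balb/c, with medians of 73 and 87. limma-voom also called *Ccr8* lower in Balb/c (-1.30, adjusted p = 0.0328).

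The CPM values and the fold changes of this contrast differ in scaling. The median log2 fold change of all genes was -0.30 from plain CPM and -0.03 after TMM scaling. The most abundant gene, *Tmsb4x*, held 3.66% to 6.01% of counts in Balb/c and 1.79% to 2.77% in C57Bl/6J. The 100 most abundant genes held 29.5% to 35.0% and 22.3% to 26.5%. The T cell gene *Cd3e* was 982, 1230 and 1187 CPM in Balb/c on HFHS diet and 1967 to 2175 CPM on SD. In C57Bl/6J it was 1936 to 2355 CPM. Several markers moved with strain as well. *Csf1r* (5.48), *Cd8b1* (2.42), *Cd3d* and *Il7r* were higher in Balb/c, and *Tbx21* (-1.48), *Cd4* (-1.02) and *Klrb1c* were lower. The highest microglia sum of Tconv of rest brain was 667 CPM, in Balb/c SD 42_46. The part of library make-up and of these markers in the result was not tested.

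**Figure D3:**
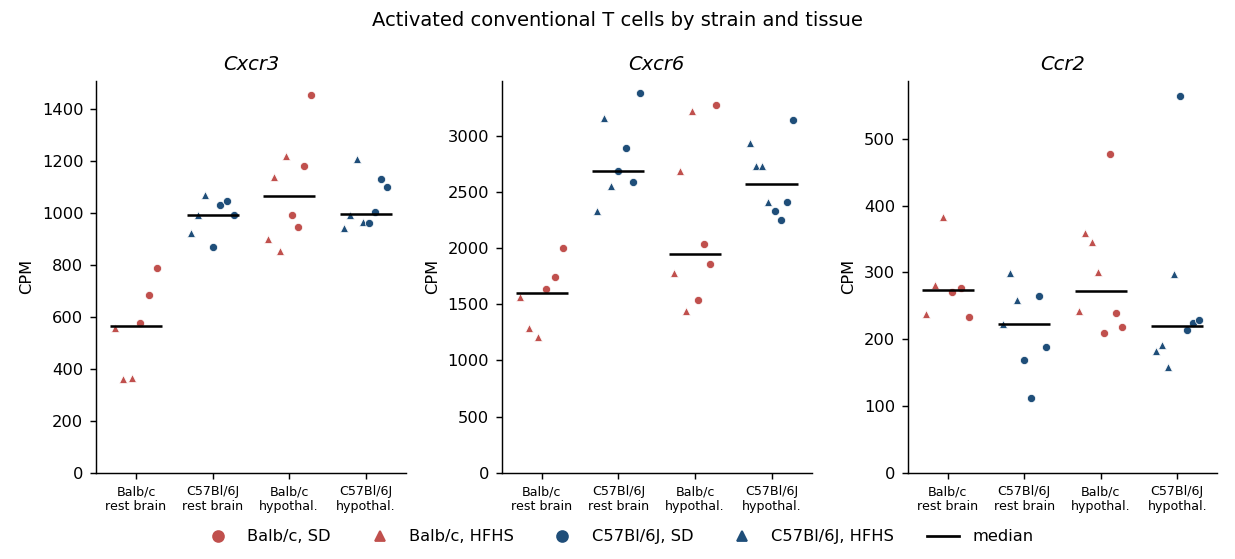
*Cxcr3*, *Cxcr6* and *Ccr2* in activated Tconv by strain and tissue. In rest brain *Cxcr3* averaged 555 CPM in Balb/c and 989 CPM in C57Bl/6J, and in the hypothalamus 1086 and 1038 CPM.

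The same contrast gave no receptor in the other groups. In Tconv of the hypothalamus edgeR called 2.1% of 10848 genes, 0.996% higher and 1.11% lower in Balb/c, and 0 of the 8 receptors tested. *Cxcr3* averaged 1086 ± 200 CPM in Balb/c and 1038 ± 97.1 CPM in C57Bl/6J (n = 8 each; 0.05, adjusted p = 0.987), and *Cxcr6* 2231 ± 733 and 2617 ± 316 CPM (-0.25, adjusted p = 0.774). Both overlapped. In Tregs 0.3% of genes were called in rest brain (0.146% higher, 0.154% lower) and 0.0389% in the hypothalamus (0.013% higher, 0.0259% lower), and 0 of 9 receptors in either. *Ccr2* in Tregs of rest brain was 23.9 to 529 CPM (median 281) in Balb/c and 0 to 259 CPM (median 65.9) in C57Bl/6J, and was not called. The receptor with the lowest adjusted p there was *Ccr8* (-1.43, adjusted p = 0.418). In Tregs of the hypothalamus the uncalled folds ran from -6.68 for *Ccr8* to 5.07 for *Cxcr6*. The difference of the strain contrast between tissues was not tested.

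No receptor tested was called for HFHS diet in the second experiment. *Ccr6* was too low for the test in Tconv of the hypothalamus, and all 9 were tested in the other 3 groups. edgeR called 0% of all genes in each, and 0 receptors were called by DESeq2 or limma-voom. In the order Tconv of rest brain, Tconv of the hypothalamus, Tregs of rest brain and Tregs of the hypothalamus, 594, 405, 850 and 213 genes had unadjusted p < 0.05 by edgeR. DESeq2 called 12, 15, 326 and 182 genes and limma-voom 1, 0, 16 and 4. edgeR without the filter called 9 genes in Tconv of rest brain, 5 in Tregs of rest brain and 61 in Tregs of the hypothalamus, and in the last leaving out 1 library gave up to 10 (without Balb/c 42_46). *Cxcr3* of hypothalamic Tconv was 947 to 1454 CPM on SD (median 1053) and 854 to 1220 CPM on HFHS diet (median 977), with overlap (-0.06). *Cxcr6* there was 1540 to 3274 CPM (median 2291) and 1437 to 3223 CPM (median 2710), with overlap (0.11). In Tconv of rest brain *Cxcr3* was 575 to 1046 CPM on SD (median 869) and 361 to 1071 CPM on HFHS diet (median 740; -0.23), and *Cxcr6* 1633 to 3380 and 1205 to 3160 CPM (-0.17). The largest folds relative to their spread there were those of *Ccr2* (0.45, adjusted p = 0.941) and *Ccr6* (3.24, adjusted p = 0.982). *Ccr2* was 112 to 277 CPM on SD (median 234) and 223 to 383 CPM on HFHS diet (median 270). *Ccr6* was 0 to 4.5 CPM (median 0.0545) and 0.104 to 26 CPM (median 10.1). Uncalled log2 fold changes for diet in Tregs of the hypothalamus ran from -0.49 for *Ccr7* to 5.70 for *Ccr8*, with a receptor median of 1.48. In Tregs of rest brain they ran from -2.51 for *Cxcr6* to 0.98 for *Ccr6*, with a median of 0.13. In Tregs of the hypothalamus the median of all genes depended on scaling, at 0.20 with TMM and 0.03 with DESeq2 size factors for diet, and at -0.28 and -0.16 for strain.

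The pilot had 1 library per condition, so its fold changes carry counting error only, as do their 95% intervals and all detection floors, and the spread between pools is not in them. Library totals ran from 99925 to 5334511 counts. The CD25- gate of the diet libraries took low to intermediate CD44 and so left out the CD44 hi cells of the second experiment. Here genes with more than 20 scaled reads in either library were called at more than 2-fold, which held for 61.9% of 6686 genes and for 5 receptors. *Cxcr3* had 344 counts on HFHS diet against 27 on SD (21.7-fold, 14.7 to 33.4), *Cxcr6* 2055 and 411 (8.52-fold, 7.66 to 9.49) and *Ccr2* 437 and 156 (4.77-fold, 3.97 to 5.77). *Ccr7* had 508 and 5395 counts (0.16-fold, 0.146 to 0.176) and *Cxcr4* 4 and 175 (0.0389-fold, 0.0105 to 0.101). The 3 effector receptors were thus higher and *Ccr7* and *Cxcr4* lower in the HFHS library. The count of 5 receptors was close to the share of all genes, of which 1661 were higher and 2475 lower. *Ccr4* had 29 and 7 counts (7.06-fold, 3.03 to 19.1) and was not called because neither library passed 20 scaled reads, *Cxcr5* 0 and 20, and *Ccr6* and *Ccr8* had 0 in both. *Foxp3* was 1.38 CPM on HFHS diet and 72.7 CPM on SD, the T cell list summed to 13317 and 4279 CPM and the CD8 list to 52 and 5.73 CPM (*Cd8a* at 0 in both). Their part in the result was not tested. None of these receptors was called for diet in the activated Tconv of the second experiment.

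Between the pilot Treg libraries most genes differed. By the same rule 80.5% of 5445 genes were called (2627 higher and 1757 lower on HFHS diet), and so were 4 receptors. *Ccr2* had 1526 counts on HFHS diet and 0 on SD (at least 423-fold), *Cxcr5* 211 and 16 (11-fold, 6.6 to 19.6), *Cxcr4* 507 and 52 (8.12-fold, 6.09 to 11) and *Ccr7* 1001 and 370 (2.25-fold, 2 to 2.54). All 4 were higher on HFHS diet. *Cxcr3* had 103 and 123 counts and was not called. The Treg list summed to 2748 CPM on HFHS diet and 4404 CPM on SD, and the B cell gene *Ms4a1* was 0 and 222 CPM. Their part in the result was not tested. *Cxcr6* had 0 counts in both Treg libraries, whose floors were 1.48 and 2.43 CPM, and the CD25++ library of *ob*/*ob* had 0 as well (floor 30 CPM). The CD25++ library of WT, the one with microglia genes, had 382 counts (71.6 CPM), above the 22.7 CPM of the CD25- library of WT.

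Between the CD25- libraries of *ob*/*ob* and WT 85.7% of 6440 genes (3683 higher and 1838 lower in *ob*/*ob*) and 6 receptors were called. The WT library was much shallower, with 220336 counts and 3662 genes seen against 1727379 and 10114 in *ob*/*ob*. The level of 3 counts was 13.6 CPM in WT and 1.74 CPM in *ob*/*ob*, so a 0 in WT says less. *Cxcr6* reached 4249 counts in *ob*/*ob* against 5 in WT (109-fold, 46.7 to 336), *Ccr7* 1033 and 28 (4.73-fold), *Ccr2* 413 and 0 (at least 17.7-fold) and *Ccr6* 106 and 0 (at least 4.53-fold). *Cxcr3* had 1147 and 453 counts (0.325-fold) and *Cxcr4* 37 and 27 (0.176-fold), both lower in *ob*/*ob* after scaling. *Ccr4* had 38 and 0 counts and *Ccr8* 22 and 0, and neither was called. The Treg list summed to 362 CPM in *ob*/*ob* and 1434 CPM in WT, with *Foxp3* at 27.8 and 300 CPM. The CD8 list summed to 95.5 and 0 CPM (*Cd8a* at 0 in both), the NK list to 101 and 0 CPM and the endothelial list to 64.3 and 0 CPM, led by *Cd8b1*, *Klrb1c* and *Pecam1*. Their part in the result was not tested. The CD25++ library of *ob*/*ob* was the smallest and held 9 counts of *Cxcr3*, 18 of *Ccr2* and 24 of *Ccr7*.

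Other receptors, ligands and signalling genes were looked at beside the 9. Of 8 other chemokine receptors tested in rest brain 3 were lower in Tregs than in Tconv (*Cxcr2* -2.81, adjusted p = 0.0341; *Cx3cr1* -5.66, adjusted p = 0.00238; *Xcr1* -6.73, adjusted p = 0.0264), where 10.5% of all genes were lower, and the median of the 8 was -2.26. Of 5 ligand genes tested *Cxcl12* (-3.88, adjusted p = 0.0115) and *Cxcl13* (-4.03, adjusted p = 0.0178) were lower in Tregs. Of 20 genes of signalling below the receptors 6 were higher in Tregs, among them *Rhoh* (1.83, adjusted p = 2.64e-07), *Coro1a* (1.13, adjusted p = 0.000285) and *Rgs16* (2.96, adjusted p = 0.000429), beside 4.37% of all genes, and 3 were lower (*Gng2* -1.61, adjusted p = 6.69e-07; *Elmo1* -0.58, adjusted p = 0.0281; *Rgs18* -9.35, adjusted p = 0.00102). Their median was 0.03.

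In the hypothalamus, where 0.542% of all genes were higher and 7.18% lower in Tregs, 1 of 5 other receptors (*Xcr1* -8.21) was lower and 0 of 2 ligands were called. Of 20 signalling genes *Rhoh* was higher (1.54) and *Pik3r5* lower (-4.32). Between Tconv of the 2 tissues 5.69% of all genes were higher and 11.3% lower in the hypothalamus. There 2 of 8 other receptors were lower (*Ccr10* -8.02, *Cxcr2* -3.06) and 4 of 20 signalling genes were higher (*Gnai2* 0.65, *Grk2* 0.58, *Rac2* 0.36, *Coro1a* 0.97). Between the strains *Gnai2* (-1.27), *Coro1a* (-1.58), *Grk6* (-1.06) and 4 more of 20 signalling genes were lower in Tconv of rest brain of Balb/c, where 11.4% of all genes were, and *Rgs10* was higher (1.64). Of 8 other receptors *Xcr1* was lower there (-1.73, adjusted p = 0.0429). For HFHS diet edgeR called 0 genes of each list.

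Across the 59 libraries the genes most like *Cxcr6* were *F2rl2* (Pearson r = 0.88), *Gzmk* (0.87) and *Plekhf1* (0.85), of 11268 genes searched. Within Tconv r for these 3 was 0.30, 0.12 and 0.62, and within Tregs 0.47, 0.33 and 0.49, so much of the likeness was the difference between the cell types. *Cxcr3* was closest to *Mdm4* (0.87), *Arf1* (0.85) and *Lcp2* (0.84). For *Lcp2* r was 0.84 within Tconv and 0.85 within Tregs, while for *Mdm4* it was 0.07 within Tconv. *Ccr8* was closest to *Lockd* (0.81), *Cxcr4* to *Dock10* (0.78), *Ccr2* to *Dkkl1* (0.79), *Ccr7* to *Sigirr* (0.72), *Ccr4* to *Fam117a* (0.65), *Cxcr5* to *Pknox1* (0.56) and *Ccr6* to *Tnfrsf9*, *Matk* and *Foxp3* (0.55 each). Within Tconv r for the first gene of each of these 7 receptors was -0.15, 0.29, 0.12, -0.15, 0.35, 0.49 and 0.08 (*Tnfrsf9*), in that order. Within Tregs it was 0.89, 0.85, 0.72, 0.77, 0.78, 0.66 and 0.51. With Spearman correlation at most 1 of the top 3 stayed for any receptor, so these orders depend on the measure. For *Cxcr4* and *Dock10* the Spearman value was 0.05. Of pairs among the 9, *Cxcr3* and *Cxcr6* had r = 0.52 over all libraries, 0.67 within Tconv and 0.27 within Tregs, and *Cxcr6* and *Ccr7* had r = 0.15, -0.57 and 0.05 in the same order.

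Of the 9 genes 5 lie on chromosome 9 in GRCm38 (*Cxcr5*, *Ccr4*, *Ccr8*, *Cxcr6* and *Ccr2*). *Cxcr6* (9:123806477-123811754, + strand) lies inside *Fyco1* on the other strand and shares 0 exon bases with it. *Cxcr5* (9:44511787-44526444, - strand) shares 110 exon bases with *Bcl9l* on the other strand, and whether counting used the strand was not stated. For *Ccr2* (9:124101918-124109140, + strand) 3.41% of its 6745 words of 31 bases are found in other genes. *Cxcr3* (X:101731535-101734147, - strand) has 2 exons, and *Ccr6* (17:8236041-8258519, + strand) has 8 after merging of its transcripts.

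An annotated promoter was found for 7 of the 9 genes, not for *Cxcr5* and *Ccr7*. The 250 bases before the start were searched on both strands for 6 motifs, which occur in 3.33% (T-box), 3.17% (forkhead), 9.99% (GATA), 2.88% (ETS), 32.7% (GC box) and 12.4% (TATA box) of 32851 promoters. *Cxcr3*, *Cxcr6* and *Ccr4* had no match. *Cxcr4* had 3 GC boxes, at 95, 75 and 50 bases before the start, and a TATA box. *Ccr8* had a GATA motif 239 bases before the start, and *Ccr2* had one 97 bases before a start that lies inside the gene, as does the start used for *Ccr4*. *Ccr6* had 2 annotated promoters, with no match at the gene start and a GATA motif 70 bases before the internal start. The stretches of 4 genes follow with matches in capitals, and the strand is that of the gene.

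The stretches are, in GRCm38.p6, *Cxcr3* X:101734148-101734397 (-), *Cxcr6* 9:123806227-123806476 (+), *Cxcr4* 1:128592300-128592549 (-), *Ccr8* 9:120091883-120092132 (+).

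Cxcr3: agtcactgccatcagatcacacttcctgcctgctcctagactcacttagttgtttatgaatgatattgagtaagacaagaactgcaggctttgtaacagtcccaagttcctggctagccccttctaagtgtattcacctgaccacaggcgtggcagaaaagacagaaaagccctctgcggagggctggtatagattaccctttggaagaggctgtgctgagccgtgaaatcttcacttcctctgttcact

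Cxcr6: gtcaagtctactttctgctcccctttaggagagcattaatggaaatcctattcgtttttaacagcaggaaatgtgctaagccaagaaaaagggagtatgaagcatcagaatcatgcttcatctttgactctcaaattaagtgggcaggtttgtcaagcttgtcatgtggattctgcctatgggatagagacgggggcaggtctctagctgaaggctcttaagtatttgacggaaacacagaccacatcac

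Cxcr4: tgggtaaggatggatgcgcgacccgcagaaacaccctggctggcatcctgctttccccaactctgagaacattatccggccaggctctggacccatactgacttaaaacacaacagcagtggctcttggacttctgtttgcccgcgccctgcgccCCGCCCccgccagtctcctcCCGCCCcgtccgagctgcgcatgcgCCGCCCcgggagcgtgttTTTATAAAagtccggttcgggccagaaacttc

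Ccr8: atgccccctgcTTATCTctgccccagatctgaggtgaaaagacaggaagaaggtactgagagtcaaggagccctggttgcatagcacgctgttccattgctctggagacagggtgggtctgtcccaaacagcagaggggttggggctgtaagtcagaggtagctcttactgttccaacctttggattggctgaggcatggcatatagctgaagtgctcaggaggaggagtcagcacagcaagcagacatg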

How the data were processed

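The authors deposited estimated counts and TPM from Salmon for the second experiment and counts from HTSeq for the pilot, and these were used as deposited. Estimated counts were rounded to whole counts for the tests. CPM are counts scaled to the library total, and TPM are those of the authors. Gene names were matched to the annotation for 34850 of 35034 names (99.47%). Pilot reads not counted on a gene were 82.9% to 99.6%.

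A gene was tested if its count passed 10 in a number of libraries no smaller than the smallest group, and the 9 named receptors were read from the same fit where they passed. Unless another tool is named, p-values come from edgeR quasi-likelihood tests with TMM scaling, Benjamini-Hochberg adjusted, called at 0.05, with strain and diet in each fit. Alternatives were DESeq2, limma-voom with quality weights, DESeq2 size factors, other filters, single strains, SD alone and leaving out libraries. The 2 sets of libraries left out for their marker genes were chosen after the data were seen. The members and gene lists were chosen with earlier results of these data known. Versions were R 4.3.3, edgeR 4.0.16, DESeq2 1.42.0, limma 3.58.1, Python 3.11.15, pandas 2.3.3, numpy 2.4.6, scipy 1.17.1 and matplotlib 3.10.9.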

Additional observations from a re-analysis of the deposited data

Results flagged for a closer look

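In groups of 4 libraries, 27 of 104 pairs of a receptor and a group had 1 library far from the others, where the rule gives about 1 in 20 by chance for normal values. All 27 were the highest of their group, and with many values at or near 0 that rate need not hold. Each is given with its CPM and the nearest other library of its group in brackets, and the cause was not tested. *Ccr2*: Tregs of the hypothalamus, Balb/c SD 06_10 821 (130) and C57Bl/6J SD 67_71 132 (0), and Tconv of the hypothalamus, Balb/c SD 32_36 477 (239) and C57Bl/6J SD 11_15 564 (229). *Ccr4*: Tregs, hypothalamus C57Bl/6J HFHS 72_76 91.9 (0.567) and rest brain C57Bl/6J SD 11_15 184 (27.7), and Tconv, hypothalamus C57Bl/6J HFHS 06_10 24.4 (1.97) and rest brain C57Bl/6J SD 62_66 17.4 (5.14). *Ccr6*: Tregs of the hypothalamus, Balb/c HFHS 11_14 180 (3.36), Balb/c SD 37_41 272 (5.18) and C57Bl/6J SD 62_66 8.96 (0). *Ccr6* in Tconv: hypothalamus C57Bl/6J HFHS 33_37 26.5 (0) and SD 67_66 25.5 (0), and rest brain C57Bl/6J SD 11_15 3.56 (0.189).

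*Ccr7*: Tregs of the hypothalamus, Balb/c SD 06_10 691 (0), C57Bl/6J HFHS 06_10 664 (30.3) and C57Bl/6J SD 67_71 506 (0.119), and Tconv of the hypothalamus, C57Bl/6J HFHS 72_76 93.1 (24.5). *Ccr8*: Tconv of the hypothalamus, Balb/c SD 42_46 115 (43.5). *Cxcr4*: Tconv of the hypothalamus, Balb/c HFHS 11_14 105 (73.5). *Cxcr5*: Tregs of the hypothalamus, Balb/c HFHS 11_14 8.86 (0.22), C57Bl/6J HFHS 72_76 22.3 (1.74) and C57Bl/6J SD 67_71 8.79 (0.594), and Tregs of rest brain, C57Bl/6J SD 01_05 83.1 (0.116). *Cxcr5* in Tconv of the hypothalamus: Balb/c SD 42_46 9.55 (0.169) and C57Bl/6J HFHS 77_80 11.2 (0.165). *Cxcr6*: Tregs of the hypothalamus, Balb/c HFHS 15_21 1068 (0.052). Of the 27, 13 lay in hypothalamic Tregs, where many genes had 3 counts or fewer.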

How the results depend on the processing

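Receptors called by other settings, edgeR in brackets. Tregs against Tconv, rest brain (5): pool block 3, Balb/c alone 1, C57Bl/6J alone 1, SD alone 0. Hypothalamus (1): no filter 2, limma-voom 6, DESeq2 2, pool block 5. Hypothalamus against rest brain, Tconv (1): limma-voom 3, pool block 0, Balb/c 2, C57Bl/6J 0, SD alone 0. Tregs (0): limma-voom 5. Strain, Tconv of rest brain (3): SD alone 1. Interaction (0): limma-voom 6. Signs turned and were then called for hypothalamic Tregs against Tconv in *Ccr7* and *Ccr8* with limma-voom (-5.08 and -4.86, adjusted p = 0.00126 and 0.00244) and pool block (-7.80 and -9.00, adjusted p = 0.0329 and 0.0141). In the interaction limma-voom turned *Ccr2* (-3.05), *Ccr7* (-5.90) and *Ccr8* (-6.24). Of the libraries that share a pool number in the first 4 contrasts, 6 of 12, 4 of 15, 2 of 9 and 1 of 10 pairs correlated best with their own number (median r 0.01, 0.00, 0.00 and -0.01, and -0.01, 0.00, 0.00 and 0.00 with other numbers).

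The number of all genes called moved more. Tregs against Tconv, rest brain (2073): no filter 5728, filterByExpr 1134, C57Bl/6J 415, SD 366. Hypothalamus (869): no filter 1543, filterByExpr 542, limma-voom 7312, DESeq2 1598, pool block 5528, Balb/c 1431, C57Bl/6J 378, without the 2 libraries with microglia or endothelial genes 1507, without the 4 low in *Foxp3* 1736. Tissue, Tconv (2170): no filter 7903, filterByExpr 1312, pool block 116, C57Bl/6J 1, SD 233. Tissue, Tregs (619): filterByExpr 154, limma-voom 4711, DESeq2 1194, pool block 0, C57Bl/6J 0, SD 0, without the 2 libraries 1100, without the 4 1123, without Balb/c 42_46 370, without C57Bl/6J 11_15 1197. Strain: Tconv of rest brain (2891) SD 809, Tconv of the hypothalamus (228) DESeq2 545 and SD 47, Tregs of rest brain (35) no filter 53, limma-voom 123, DESeq2 297 and SD 2, Tregs of the hypothalamus (3) no filter 16, limma-voom 13, DESeq2 250 and SD 0. Of the strain counts, that of Tregs of the hypothalamus fell to 1 without Balb/c 06_10 and without several other single libraries. Interaction (1905): filterByExpr 542, limma-voom 5896, DESeq2 1236.

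In all 211 refits that left out 1 pool, or 1 library for strain and diet, the number of receptors called was within 1.5-fold of that with all libraries. Groups held 2 to 4 libraries, and many genes of hypothalamic Treg libraries had 3 counts or fewer. The unit is the library, each made from a pool, and diet was tested with strain in the fit. RNA levels say nothing about receptor protein or migration, and the pilot has no replicates.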
